A study of Mus musculus with 24 samples.

Results

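miR-34a is one microRNA gene, Mir34a, whose hairpin gives a 5p and a 3p arm. Both mature arms, mmu-miR-34a-5p and mmu-miR-34a-3p, were taken by name from the deposited small RNA count tables of mouse lung, 2 members of 1950 mature miRNAs listed in at least 1 of the 3 tables. Thorax X-irradiation at 15 Gy was compared with no irradiation in C57BL/6 mice, 6 to 8 weeks old when they were divided into groups, and whole lung was sampled at day 14, day 90 and day 180. The groups were irradiated and control lungs at each of these days, with 4 libraries per group and 24 in all, and no transgene, drug or allele is named for any of them. Nothing in the labels states that libraries of one group are separate animals, and p-values therefore measure only the spread between libraries, which may be technical.

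Mir34a is a direct target gene of the transcription factor p53, which is activated by DNA damage such as that caused by ionising radiation. The mature 5p arm guides silencing complexes to messenger RNAs that match its seed, bases near its 5′ end, and known targets include mRNAs of the cell-cycle and survival proteins Cdk6, Ccnd1, Met, Bcl2 and Sirt1. Through Sirt1, a deacetylase that acts on p53, it is part of a positive feedback loop, and in lung it is known as a tumour suppressor and for its link to senescence of alveolar epithelial cells. The 3p arm is the passenger strand, most of which is discarded when the 5p strand is loaded.

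The hairpin is shown because both members are cut from it, with the 2 arms in capitals. It lies at chr4:150068454-150068555 on the plus strand (GRCm38.p6) and is 102 bases long.
mmu-mir-34a hairpin: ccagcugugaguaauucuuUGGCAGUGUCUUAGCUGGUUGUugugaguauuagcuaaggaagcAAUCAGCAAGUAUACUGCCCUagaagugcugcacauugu
The 5p arm takes hairpin bases 20 to 41 and the 3p arm bases 64 to 84. In the annotation the last 17 bases of the hairpin also fall in Gm37795, a gene model that the annotation classes as TEC, on the same strand, and both arms end before it.

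The mature arms follow, with the seed (bases 2 to 8) in capitals, together with the other mature miRNAs of the RefSeq table that carry the seed of miR-34a-5p. They show which sequence the miRNAs share and where they part.
mmu-miR-34a-5p: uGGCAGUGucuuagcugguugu
mmu-miR-34a-3p: aAUCAGCAaguauacugcccu
mmu-miR-34b-5p: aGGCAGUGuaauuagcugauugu
mmu-miR-449a-5p: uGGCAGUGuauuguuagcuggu
mmu-miR-449c-5p: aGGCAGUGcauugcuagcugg
The 5p arm lies at chr4:150068473-150068494 and the 3p arm at chr4:150068517-150068537. miR-34b-5p comes from chr9:51103610-51103632 on the minus strand, and miR-449a-5p and miR-449c-5p come from chr13:113037549-113037570 and chr13:113036008-113036028 on the plus strand. Of 1679 mature miRNAs in the table, 4 carried the 5p seed, and the 3p seed was found in miR-34a-3p alone. From base 2 on, miR-34b-5p and miR-449a-5p matched miR-34a-5p for 8 bases and miR-449c-5p for 7. miR-34c-5p and miR-449b are also of this family. They had no entry among these mature miRNAs, so their sequences were not compared. No other miRNA had the same counts as either arm of miR-34a over the libraries of any table.

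The libraries held 2832205 to 3695133 counts each. Levels are given as CPM, counts scaled to a common library size with TMM factors within a day. The lung markers were present in every library, with a summed level of 35794 to 57787 CPM for the endothelial miR-126a arms and 30447 to 68709 CPM for the epithelial miR-200 family. The library with the highest endothelial, epithelial, smooth muscle and erythroid sums at day 180 was irradiated library 1. At day 14 control library 2 had 4016 CPM of the stratified epithelium miRNAs, miR-205-5p and miR-203-3p, which spanned 520 to 582 CPM in irradiated libraries and started at 552 CPM in control libraries.

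At day 14 miR-34a-5p stood at 22809, 23646, 24793 and 14574 CPM in irradiated libraries 1 to 4, against 12465, 11785, 12730.5 and 11824 CPM in control libraries 1 to 4. All 4 irradiated libraries were above all 4 controls, irradiated library 4 by much less than the other irradiated libraries. These levels rest on 46931 to 76512 counts in irradiated libraries and 37311 to 40347 in control libraries, so counting error is small beside the spread between libraries. Of 499 miRNAs tested, 4 (0.802%) had every irradiated library above every control and 8 (1.6%) every one below. Mean levels were 21456 ± 4659 CPM (SD) for the irradiated lungs and 12201 ± 471 CPM (SD) for the controls, with n = 4 each. miR-34a-5p made up 2.14% of all miRNA counts in irradiated lungs and 1.22% in control lungs. The coefficient of variation was 21.7% in irradiated lungs and 3.86% in control lungs. In bulk tissue a change in the number of cells of a type and a change in RNA per cell cannot be told apart.

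The log2 fold change at day 14 was 0.81 ± 0.16 (SE), 1.76-fold, and its edgeR quasi-likelihood adjusted p was 0.328. By unadjusted p (0.000656 in edgeR) miR-34a-5p ranked 1 of 499, and by log2 fold change it ranked 14. In the edgeR test 0 of 499 miRNAs (0%) passed an adjusted p of 0.05 and 27 had an unadjusted p below it; DESeq2 called 1 miRNA and limma-voom 0. The DESeq2 call was miR-34a-5p, at an adjusted p of 0.024. In edgeR it passed without irradiated library 4 (log2 fold change 0.99, adjusted p 0.00137), in a joint fit of the 24 libraries (0.0325) and when low counts were not filtered (0.02). It did not pass in the other 17 of 21 alternatives, and over all of them the adjusted p from edgeR, DESeq2 or limma spanned 0.00137 to 0.97. The exact permutation test of the CPM gave p = 0.0286, the smallest possible for 4 against 4 libraries. Adjusted over both arms and the 3 days, this permutation p was 0.171. Within the pairs of equal library number, irradiated was higher in 4 of 4 and the exact permutation p was 0.125, the smallest that 4 pairs allow; with this block in edgeR the log2 fold change was 0.79 ± 0.13 and the adjusted p 0.551.

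**Figure D1:**
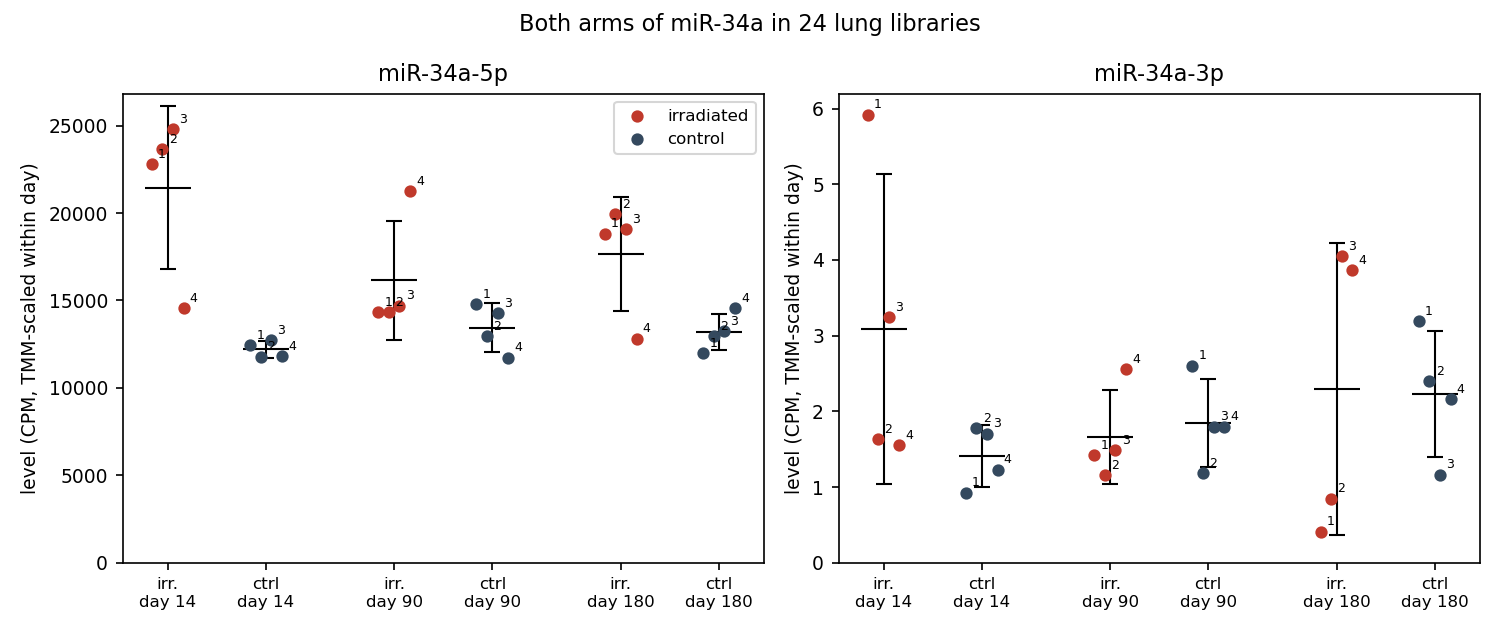
Level of miR-34a-5p and of miR-34a-3p (CPM after TMM scaling within a day, separate vertical axes) in each of the 24 libraries, with irradiated libraries left of control libraries at each day; points are libraries with their number, bars the group mean and SD. Of the 3 days, day 14 is the one at which all 4 irradiated libraries lie above all 4 control libraries for the 5p arm, and the 3p arm stays at a few CPM or less.

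At day 90 the level was 14317, 14336, 14699 and 21244 CPM in irradiated libraries 1 to 4, against 14806, 12940.5, 14293 and 11726.5 CPM in control libraries. Irradiated library 4 was far above the rest, and the other irradiated libraries lay within the control range. The means were 16149 ± 3401 CPM (SD) in irradiated lungs, 1.64% of the counts, and 13441 ± 1388 CPM (SD) in control lungs, 1.33% of the counts (n = 4 each). Of the 558 miRNAs tested, 27 (4.84%) had every irradiated library above every control and 13 (2.33%) every one below, and miR-34a-5p was not one of them. The log2 fold change was 0.26 ± 0.14 (SE; edgeR adjusted p 0.506) and 0.08 ± 0.099 without irradiated library 4 (edgeR adjusted p 0.8). The exact permutation p was 0.2. edgeR called 2 of 558 miRNAs (0.358%) at this day, and miR-34a-5p ranked 103 by p.

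At day 180 irradiated libraries 1 to 4 had 18824, 19956, 19083 and 12811 CPM, against 12007, 12949, 13251 and 14541 CPM in control libraries. Irradiated libraries 1 to 3 were above every control, and irradiated library 4 lay within the control range. The means were 17668.5 ± 3274 CPM (SD) in irradiated lungs, 1.77% of the counts, and 13187 ± 1047 CPM (SD) in control lungs, 1.31% of the counts (n = 4 each). The log2 fold change was 0.42 ± 0.16 (SE; edgeR adjusted p 0.259), beside a median of 0.13 over all 552 miRNAs tested, and 0.56 ± 0.12 without irradiated library 4 (edgeR adjusted p 0.115). The exact permutation p was 0.114. All irradiated libraries were above all controls for 30 of 552 miRNAs (5.43%) and below them for 36 (6.52%). In edgeR 0 miRNAs (0%) passed at day 180, with 101 at an unadjusted p below 0.05, while DESeq2 called 28 and limma-voom 0. miR-34a-5p ranked 51 by p.

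Across the days the direction was the same, higher in irradiated lung, in each fit and in each of 21 alternatives per day, with a log2 fold change between 0.75 and 0.99 (day 14), 0.08 and 0.31 (day 90), and 0.32 and 0.56 (day 180). In each day the spread was wider among irradiated than among control libraries. At day 90 the coefficient of variation was 21.1% in irradiated lungs and 10.3% in control lungs, and at day 180 it was 18.5% in irradiated lungs and 7.94% in control lungs. The irradiated library farthest from the others of its group was library 4 at each day, lowest at day 14 and day 180 and highest at day 90. Without it, the irradiated libraries spanned 14317 to 14699 CPM at day 90 and 18824 to 19956 CPM at day 180. The control libraries spanned 11726.5 to 14806 CPM and 12007 to 14541 CPM, so the wider spread at these days rested on irradiated library 4.

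**Figure D2:**
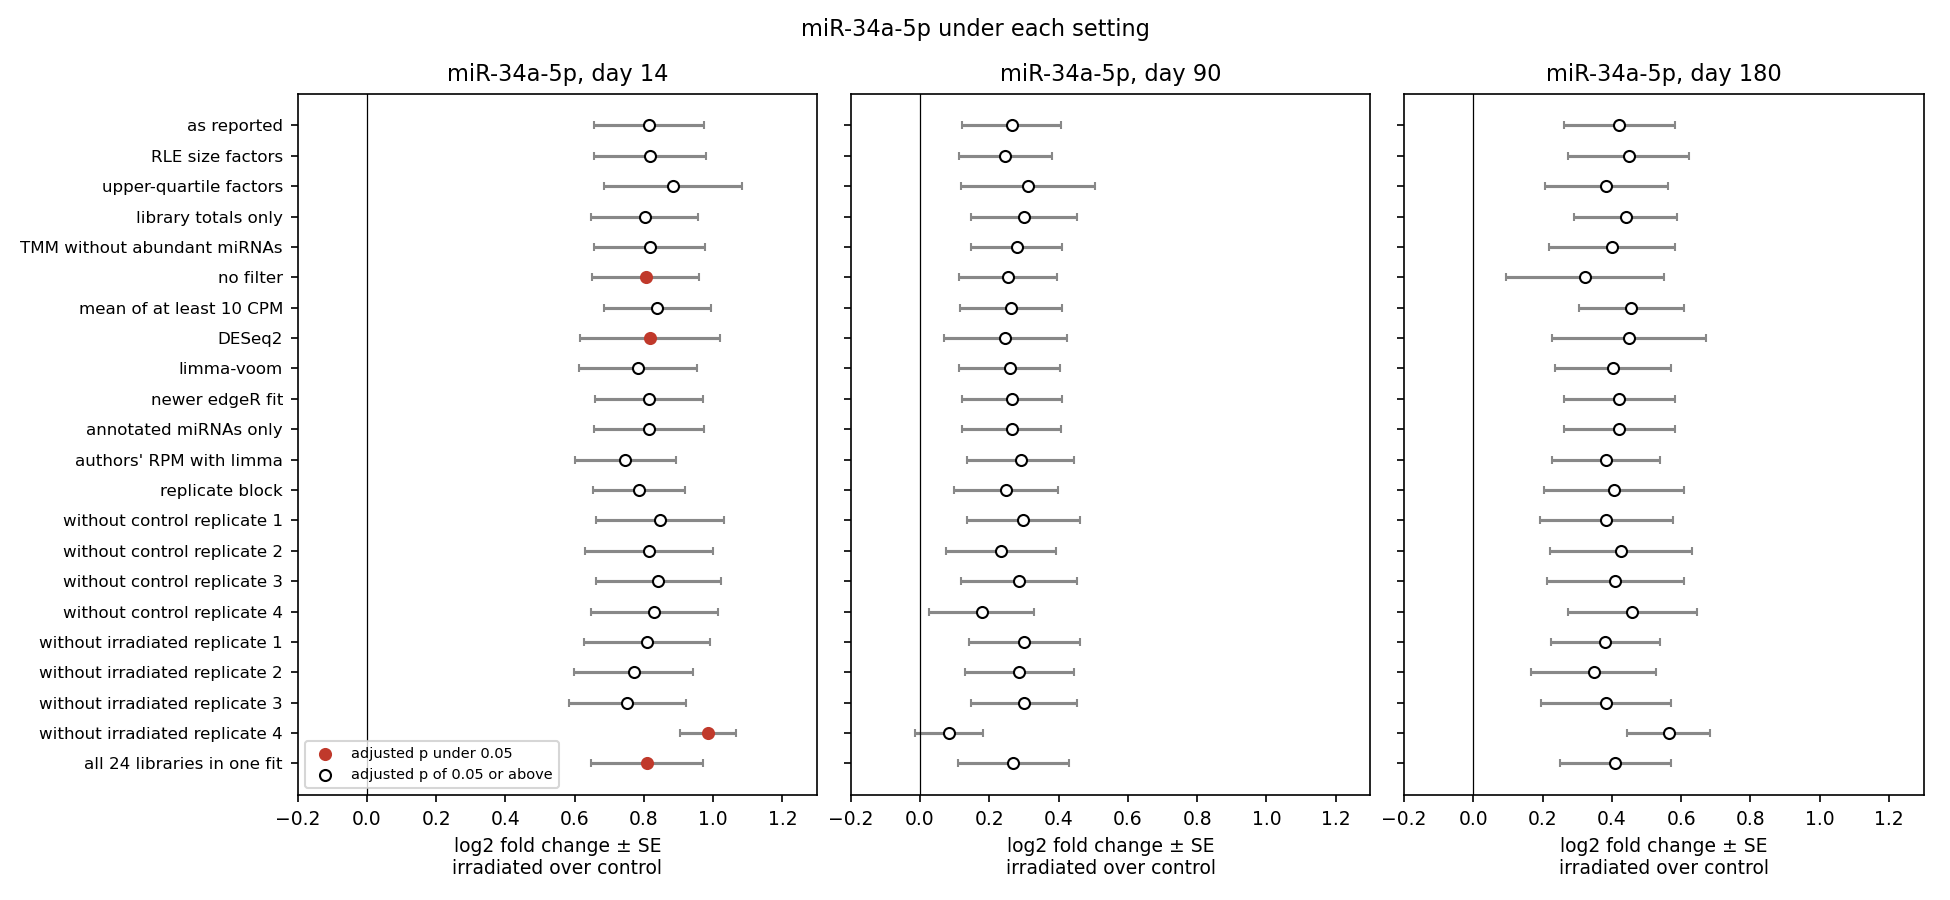
Log2 fold change of miR-34a-5p, irradiated over control (horizontal axis), at each day as reported and under each alternative setting (rows); bars are SE and filled points mark an adjusted p under 0.05 over all miRNAs tested. Every estimate lies above 0, and those past the threshold are all at day 14.

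With all 24 libraries scaled together, the groups ran in the following order of miR-34a-5p level. Irradiated day 14 came first with 23844 ± 5001 CPM, before irradiated day 180 with 16744 ± 3413 CPM and irradiated day 90 with 15251 ± 3161 CPM (SD, n = 4 each). Control day 14 followed with 13613 ± 670 CPM, then control day 90 with 12654.5 ± 1051 CPM and control day 180 with 12599 ± 928 CPM. All 3 irradiated groups stood before the 3 control groups, but the ranges of all neighbours in this order overlapped. The gap between the first and the second group (7100 CPM) was larger than the SD of either, and the gaps between the other neighbours were within the larger SD of the pair. The day tables were deposited separately, so levels across days also carry any difference between the tables.

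The change in the radiation effect between days was tested itself, in one edgeR fit of the 624 miRNAs that passed the filter on low counts among those listed in all 3 tables. For miR-34a-5p the effect at day 90 minus that at day 14 was -0.54 ± 0.23 on the log2 scale (SE; edgeR adjusted p 0.892, unadjusted 0.0266). The effect at day 180 minus that at day 14 was -0.40 ± 0.23 (edgeR adjusted p 0.493), and day 180 minus day 90 was 0.14 ± 0.23 (edgeR adjusted p 0.83). With 1 library left out these differences spanned -0.74 to -0.45, -0.50 to -0.24 and 0.10 to 0.37, and irradiated library 4 of day 180 moved the last 2 most (-0.24 and 0.37 without it). None of these passed the threshold, so the radiation effect on miR-34a-5p is not shown to differ between days. For each of these differences edgeR called 0 of 624 miRNAs (0%), with 28, 71 and 91 at an unadjusted p below 0.05. DESeq2 called 1, 3 and 2, and limma-voom called 0 each time.

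The other arm, miR-34a-3p, was counted rarely. At day 14 it had 18, 5, 10 and 5 counts in irradiated libraries 1 to 4, against 3, 6, 5 and 4 in control libraries. Irradiated library 1 was the highest of these and the groups overlapped. The mean was 3.09 ± 2.04 CPM (SD) in irradiated lungs and 1.41 ± 0.404 CPM (SD) in control lungs (n = 4 each), a log2 ratio of 1.13 (exact permutation p 0.171), or 0.60 without irradiated library 1. Within the pairs of equal number at day 14 the exact permutation p was 0.25. At day 90 the counts were 5, 4, 5 and 10 in irradiated libraries, against 9, 4, 6 and 7 in control libraries. At day 180 they were 1, 3, 16 and 14 in irradiated libraries, against 12, 9, 4 and 7 in control libraries. The groups overlapped at both days, and the 4 irradiated libraries of day 180 split into a pair with fewer counts than any control and a pair with more.

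The mean of miR-34a-3p at day 90 was 1.66 ± 0.620 CPM in irradiated lungs and 1.85 ± 0.583 CPM in control lungs, a log2 ratio of -0.16 with an exact permutation p of 0.571 (SD, n = 4 each). At day 180 it was 2.29 ± 1.93 CPM in irradiated lungs and 2.23 ± 0.835 CPM in control lungs, a log2 ratio of 0.04 with an exact permutation p of 0.971. At these counts no difference was detectable at any day. The sign held at day 14 but turned at day 90 and day 180 when single libraries were left out. Without control library 1 of day 90 the log2 ratio was 0.056, and at day 180 it was -0.38 without irradiated library 3, -0.33 without irradiated library 4 and -0.17 without control library 3. The arm did not pass the filter on low counts within a day. It passed when all 24 libraries were fitted together, and the differences of its radiation effect between days were -1.23 ± 0.77 (day 90 minus day 14), -1.03 ± 0.75 (day 180 minus day 14) and 0.20 ± 0.75 (day 180 minus day 90), with edgeR adjusted p of 0.996, 0.638 and 0.927. Without irradiated library 1 of day 14 the differences from day 14 were -0.81 (day 90) and -0.48 (day 180). In the joint scaling its group means ran in the order irradiated day 14 (3.37 CPM), irradiated day 180 and control day 180 (both 2.14 CPM), control day 90 (1.74 CPM), control day 14 (1.57 CPM) and irradiated day 90 (1.56 CPM), and no neighbours differed beyond their SD.

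Over the 24 libraries there were 1265774 counts of the 5p arm and 172 of the 3p arm, so the 3p arm made up 0.0136% of both. The number of 5p counts per 3p count had a median of 8120 and ran between 3312 and 45605, and both ends were irradiated libraries of day 180. In irradiated library 1 of that day the 3p share was 0.00219% (1 of 45606 counts; exact Clopper-Pearson 95% interval 5.55e-05% to 0.0122%). In irradiated library 4 it was 0.0302% (14 of 46376 counts; interval 0.0165% to 0.0506%). These intervals cover counting error only, since reads after PCR are not independent molecules.

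The arm ratio, log2 of the 5p over the 3p count with 0.5 added to each, did not separate the groups. At day 14 it was 12.86 ± 0.75 in irradiated lungs and 12.97 ± 0.41 in control lungs (SD, n = 4 each; exact permutation p 0.857). Within the pairs of equal number at day 14 the exact permutation p was 0.875. The difference turned positive without irradiated library 1 (0.23) or control library 1 (0.072). At day 90 it was 13.17 ± 0.20 in irradiated lungs and 12.76 ± 0.37 in control lungs (exact permutation p 0.143). Without control library 2 of day 90 the difference was 0.57. The exact permutation p was then 0.0286, the smallest possible, because the only control library that overlapped the irradiated libraries had been left out. At day 180 it was 13.25 ± 1.59 in irradiated lungs and 12.51 ± 0.62 in control lungs (exact permutation p 0.429), a difference of 0.74 that was 0.19 without irradiated library 1, 0.38 without irradiated library 2 and 1.27 without irradiated library 4. Adjusted over the 3 days, the unpaired permutation p-values were 0.857, 0.429 and 0.643.

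Counting error at 1 to 18 counts of miR-34a-3p per library can hide shared variation. Among libraries of a group, none was seen between the arms. After each group mean was removed, Pearson's r of their log2 CPM over the 24 libraries was -0.03 (permutation p 0.935) and Spearman's rho 0.03 (permutation p 0.906), and r was 0.05 without the 2 libraries farthest from the median of miR-34a-5p, irradiated library 4 of day 180 and of day 14. Within day 14, day 90 and day 180 Pearson's r was 0.32, 0.81 and -0.56, with permutation p of 0.721, 0.0404 and 0.322. The value at day 90 rests on irradiated library 4 and control library 1, since without them r was 0.05.

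**Figure D3:**
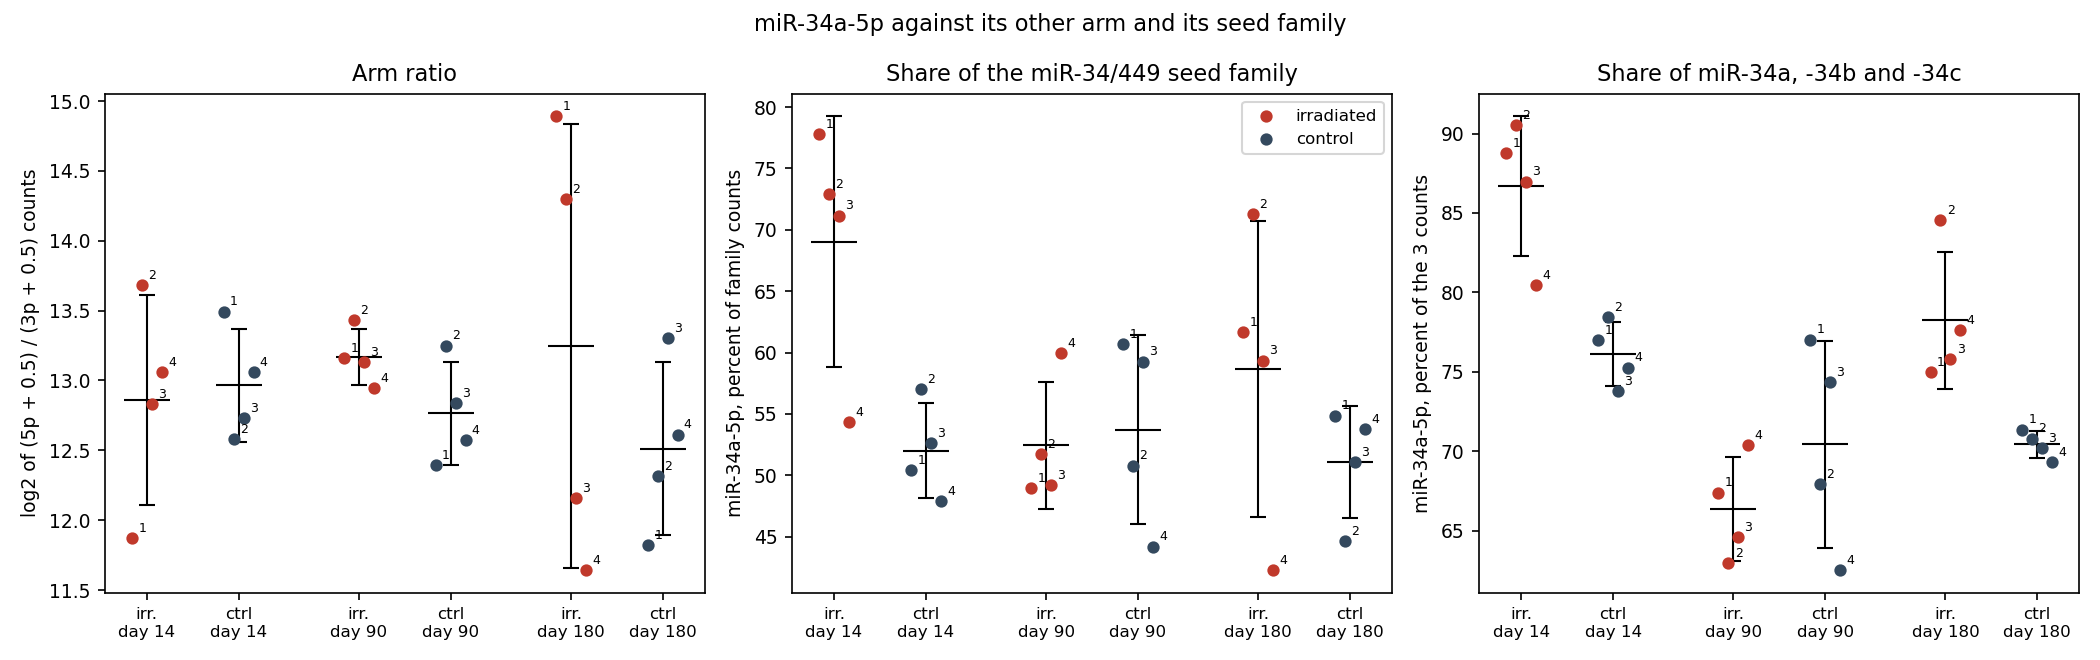
Arm ratio (log2 of 5p over 3p counts), share of miR-34a-5p in the counts of its seed family and share of miR-34a-5p in the counts of miR-34a, miR-34b and miR-34c (percent) for each library at each day, irradiated left of control; points are libraries with their number, bars the group mean and SD. The vertical axes do not start at 0. In the right panel all irradiated libraries of day 14 and day 180 lie above all control libraries of the same day, and at day 90 the groups overlap.

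Since a shared seed gives shared predicted targets, miR-34a-5p was set against its seed family, in which miR-34b, miR-34c and the miR-449 miRNAs are known from multiciliated epithelium. At day 14 miR-34a-5p made up 77.8%, 72.9%, 71.2% and 54.3% of the family's counts in irradiated libraries 1 to 4, against 50.4%, 57%, 52.6% and 47.9% in control libraries. Irradiated libraries 1 to 3 were above all controls and irradiated library 4 was within their range. Within the pairs of equal number, irradiated was higher in 4 of 4 (exact permutation p 0.125). The mean share was 69% ± 10.2 in irradiated lungs and 52% ± 3.87 in control lungs (SD, n = 4 each), a difference of 17 percentage points with an exact permutation p of 0.0571 (0.171 adjusted over the 3 days). Without irradiated library 4 the difference was 22 points. The exact permutation p was then 0.0286, the smallest possible, because the only overlapping irradiated library had been left out. At day 90 the share was 52.5% ± 5.17 in irradiated lungs and 53.7% ± 7.71 in control lungs (exact permutation p 0.8), a difference of -1.28 points that was 1.04 without control library 1 and 0.57 without control library 3. At day 180 it was 58.7% ± 12.1 in irradiated lungs and 51.1% ± 4.58 in control lungs (exact permutation p 0.314), with library values of 61.7%, 71.3%, 59.3% and 42.3% in irradiated and 54.9%, 44.7%, 51.1% and 53.8% in control lungs. Irradiated library 4 again was the lowest, and without it the difference at day 180 was 13 points rather than 7.57. The exact permutation p without it was 0.0286, again the smallest possible, because irradiated libraries 1 to 3 were above all controls.

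Against miR-34b-5p and miR-34c-5p alone, without the miR-449 miRNAs, the groups separated at day 14 and day 180. At day 14 the share of miR-34a-5p was 88.8%, 90.6%, 87% and 80.5% in irradiated libraries 1 to 4, against 77%, 78.5%, 73.8% and 75.3% in control libraries. At day 180 it was 75%, 84.5%, 75.8% and 77.6% in irradiated libraries, against 71.4%, 70.8%, 70.2% and 69.3% in control libraries. Every irradiated library was above every control at both days, library 4 included. Yet at day 180 the miR-34a-5p level of irradiated library 4 (12811 CPM) lay within the control range of 12007 to 14541 CPM. Its counts of miR-34a-5p, miR-34b-5p and miR-34c-5p together were 59729, against 63281 to 68509 in control libraries. Its share at day 180 is therefore no sign of a raised miR-34a-5p level. The differences of the means were 10.6 and 7.81 percentage points, and the exact permutation test gave p = 0.0286 for each, its smallest possible value (0.0857 adjusted over the 6 comparisons of both kinds of share). Within the pairs of equal number taken at day 14, the share was higher in irradiated lung in 4 of 4 and the exact permutation p was 0.125. At day 90 the share was 67.4%, 63%, 64.6% and 70.4% in irradiated libraries, against 77%, 67.9%, 74.3% and 62.5% in control libraries, and the groups overlapped, with a difference of -4.11 points (exact permutation p 0.314).

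The other family members did not pass the edgeR test at any day; miR-34b-5p passed at day 90 with DESeq2 (adjusted p 0.0159) and with no filter in edgeR (adjusted p 0.00369). For miR-34b-5p the irradiated lungs averaged 1300 ± 323 CPM and the controls 1539 ± 234 CPM at day 14 (SD, n = 4 each, as in the values that follow). At day 90 the irradiated lungs averaged 3173 ± 449.3 CPM and the controls 1711 ± 477 CPM, a log2 fold change of 0.89 ± 0.21 with an edgeR adjusted p of 0.119, and at day 180 the irradiated lungs averaged 1953 ± 790 CPM and the controls 2081 ± 277 CPM. For miR-34c-5p the irradiated lungs averaged 1850 ± 279 CPM and the controls 2304 ± 317 CPM at day 14, the irradiated lungs 4915 ± 530 CPM and the controls 3914 ± 747 CPM at day 90, and the irradiated lungs 2978 ± 716 CPM and the controls 3474 ± 409 CPM at day 180. For both, the irradiated mean lay below the control mean at day 14 and day 180 and above it at day 90. The share of miR-34a-5p among the miR-34 miRNAs went the other way. This is partly built in, since miR-34b-5p and miR-34c-5p are counted in the total of that share.

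For miR-449a-5p, the most abundant member after miR-34a-5p, the irradiated lungs averaged 6251 ± 2083 CPM and the controls 7518 ± 1524 CPM at day 14, the irradiated lungs 6328 ± 1478 CPM and the controls 6063 ± 1318 CPM at day 90, and the irradiated lungs 7630 ± 4229 CPM and the controls 7219 ± 2457 CPM at day 180. Irradiated library 4 of day 14 and irradiated library 4 of day 180, each the lowest of its group in miR-34a-5p, were the highest of their groups in miR-449a-5p, with 8722 and 13769 CPM. Irradiated library 4 of day 90, the highest of its group in miR-34a-5p, was not the lowest in miR-449a-5p. miR-449c-5p averaged 2.10 to 9.34 CPM over the groups, and miR-449b was listed only in the table of day 180, with 0 counts in irradiated and 3 in control libraries.

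The summed level of the ciliated miRNAs (miR-34b-5p, miR-34c-5p, miR-449a-5p and miR-449c-5p) ran between 6511 and 12262 CPM in irradiated libraries and between 8889 and 12873 CPM in control libraries at day 14. At day 90 it ran between 13388 and 15186 CPM in irradiated libraries and between 9591 and 14805 CPM in control libraries, and at day 180 between 8033 and 17487 CPM in irradiated libraries and between 9881 and 16050 CPM in control libraries. The groups overlapped at every day, and the part of ciliated cells in the share of miR-34a-5p was not tested.

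**Figure D4:**
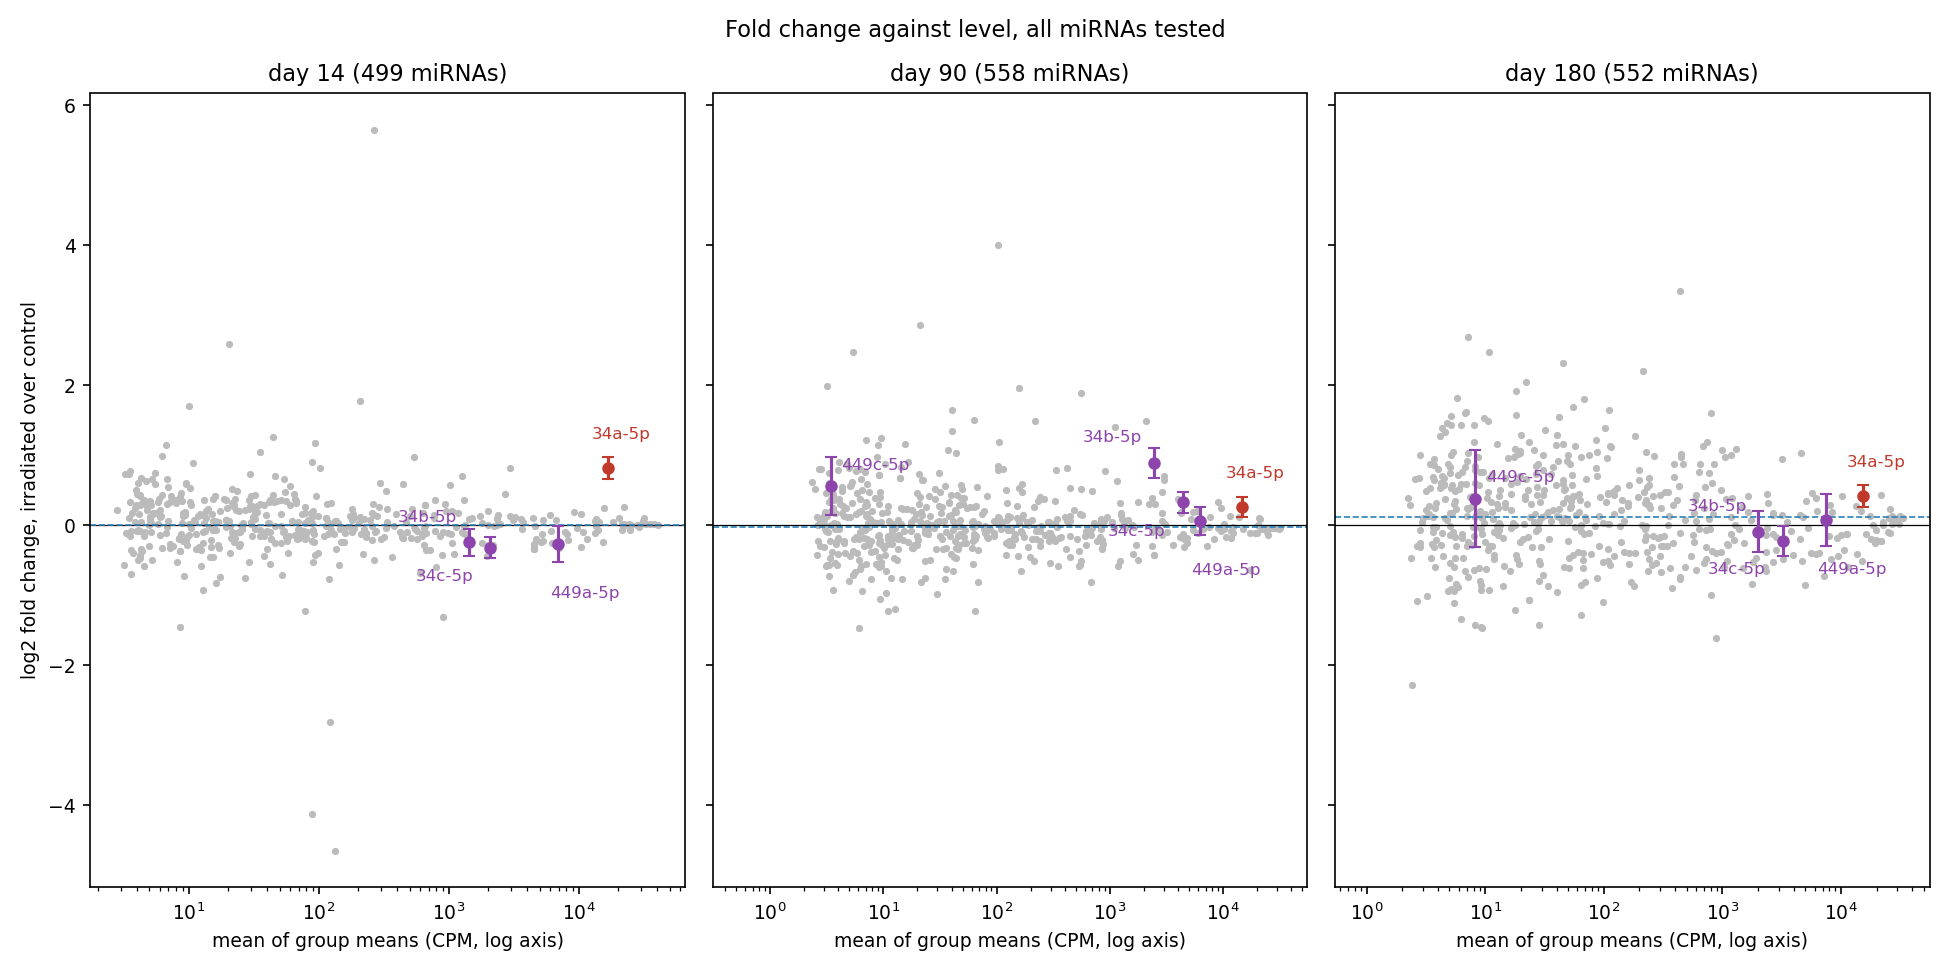
Log2 fold change, irradiated over control (vertical axis), against the mean level in CPM (horizontal log axis) for the 499, 558 and 552 miRNAs tested at day 14, day 90 and day 180; miR-34a-5p is red and the tested members of its seed family purple, with SE bars, and the blue dashed line is the median of all miRNAs tested. miR-34a-5p was the 22nd, 26th and 25th most abundant miRNA tested, and at day 14 it stands above the other abundant miRNAs at 0.81.

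Other miRNAs tied to p53 were described as lists. The induced list held 17 miRNAs that p53 is reported to induce or whose processing it is reported to promote, mainly in human cells, of which 16 were tested. None of the 16 passed at day 14, day 90 or day 180 in edgeR, 6, 8 and 5 had a log2 fold change above 0, and the list's medians were -0.09, 0.02 and -0.22, beside 0.01, -0.02 and 0.13 over all miRNAs tested. At day 90 miR-34b-5p passed with DESeq2, and miR-34b-5p and miR-141-3p passed in edgeR with no filter (adjusted p 0.0321 for miR-141-3p). For the effect at day 180 minus day 90, miR-141-3p passed in edgeR without irradiated library 1 of day 180 (-1.19, adjusted p 0.0245). At day 14 the smallest p-values in the list belonged to miR-34c-5p (log2 fold change -0.32) and miR-15a-5p (-0.25), which targets Bcl2. At day 90 they belonged to miR-34b-5p and to miR-141-3p (0.71 ± 0.20, edgeR adjusted p 0.17), of the epithelial miR-200 family that targets Zeb1. At day 180 they belonged to miR-145a-5p (-0.86 ± 0.26, edgeR adjusted p 0.224), abundant in smooth muscle, and miR-194-5p (-0.76 ± 0.30, edgeR adjusted p 0.259).

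The miR-17 to miR-92a cluster, which promotes proliferation and is repressed by p53, had 2 of 6, 0 of 6 and 1 of 5 tested members above 0 at day 14, day 90 and day 180, with medians of -0.13, -0.24 and -0.44, and none passed in edgeR. With DESeq2 miR-19b-3p passed at day 180 (-0.65, adjusted p 0.0202). Its smallest p-values belonged to miR-19b-3p (-0.35) and miR-20a-5p (-0.17) at day 14, to miR-92a-3p (-0.30) and miR-19b-3p (-0.57) at day 90, and to miR-19b-3p (-0.67) and miR-92a-3p (-0.41) at day 180. Of the miRNAs reported to target the p53 mRNA itself, 3 were tested, and none passed in edgeR. In that list the median was -0.23 at day 14, -0.12 at day 90 and -0.41 at day 180. miR-25-3p had the smallest p of them at each day, with log2 fold changes of -0.35, -0.81 and -0.74. The second was miR-30d-5p at day 14 (0.24) and day 180 (-0.41), and miR-125b-5p at day 90 (-0.12).

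**Figure D5:**
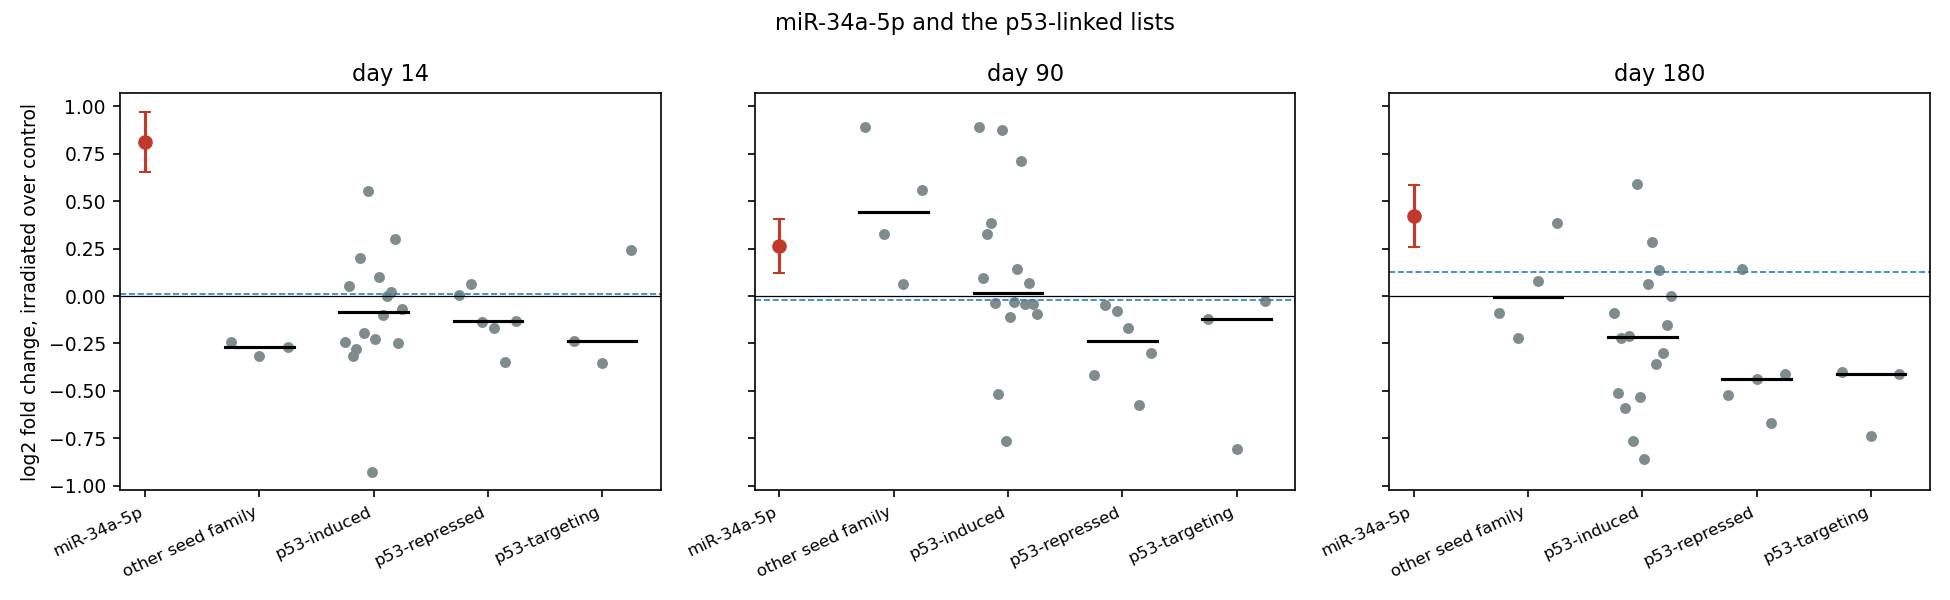
Log2 fold change, irradiated over control (vertical axis), of miR-34a-5p, of its seed family and of the lists of miRNAs induced by p53, repressed by p53 or targeting the p53 mRNA at each day; points are miRNAs tested, the bar on miR-34a-5p is its SE, black lines are list medians, and the blue dashed line is the median of all miRNAs tested. At day 14 miR-34a-5p (0.81) lies above every member of the other lists, whose highest value is 0.55, and at day 90 (0.26) and day 180 (0.42) it lies below the highest members of the induced list (0.89 and 0.59). miR-34b-5p and miR-34c-5p are drawn both in the seed family and in the induced list.

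Over the 24 libraries, the miRNAs most like miR-34a-5p after each day's mean was removed were miR-124-3p (Pearson's r 0.71), a predicted, unannotated miRNA (0.70), miR-465a-3p (0.66), miR-700-3p (0.63) and miR-499-5p (0.61), among 623 miRNAs compared. With each group's mean removed instead, so that the radiation effect no longer entered, these values were 0.59, 0.55, 0.69, 0.39 and 0.48. They are descriptions, since these libraries share their scaling and the 5 were picked as the highest of 623. For miR-124-3p, a neuronal miRNA, the irradiated lungs averaged 27.5 ± 27.2 CPM and the controls 1.73 ± 0.591 CPM at day 14, the irradiated lungs 20 ± 27.3 CPM and the controls 39.9 ± 56.1 CPM at day 90, and the irradiated lungs 35.8 ± 14.9 CPM and the controls 8.65 ± 3.03 CPM at day 180 (SD, n = 4 each). For miR-34a-3p the nearest were miR-182-5p (0.65), miR-135b-5p (0.61), miR-543-3p (0.60), miR-674-3p (0.59) and miR-212-3p (0.58), and these rest on 1 to 18 counts of miR-34a-3p per library.

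Markers of other cells were read beside the level of miR-34a-5p. At day 14, where the groups did not overlap in miR-34a-5p, the leukocyte miRNAs summed to between 15417 and 18495 CPM in irradiated libraries and between 17273 and 21441 CPM in control libraries. The epithelial sum ran between 37845 and 43451 CPM in irradiated libraries and between 41246.5 and 42709 CPM in control libraries, and the endothelial sum between 48953 and 52682 CPM in irradiated libraries and between 44544 and 54178 CPM in control libraries. All of these overlapped between the groups. At day 180 the neural markers miR-124-3p and miR-9-5p summed to between 52.8 and 150 CPM in irradiated libraries and between 29.4 and 48.9 CPM in control libraries. The stratified epithelium miRNAs at day 180 summed to between 582 and 790 CPM in irradiated libraries and between 818 and 891 CPM in control libraries, so neither of these sums overlapped. Neither did miR-122-5p of hepatocytes at day 90, with 611 to 1004 CPM in irradiated libraries and 154 to 446 CPM in control libraries. Among all miRNAs tested at day 180, 5.43% had every irradiated library above every control and 6.52% every one below. At day 90 these percentages were 4.84% and 2.33%. The striated muscle miRNAs at day 90 summed to between 978 and 3921 CPM in irradiated libraries and between 371 and 1301 CPM in control libraries, which overlapped. All 7 of them had a log2 fold change above 0 (median 1.40), and miR-133b-3p passed in edgeR (2.48 ± 0.36, adjusted p 0.0221). No marker was at 0 in all libraries of a group, and the part of these cells in the level of miR-34a-5p was not tested.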

How the data were processed

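In each of 3 deposited tables, 1 per day, the authors gave a raw read count and an RPM value for every mature miRNA and library. The deposited counts are whole numbers, as the values and file headers show. The deposited RPM served only as an alternative, because its totals (11984009 to 16081430 per library) were 3.72 to 4.65 times the summed counts. Small RNA was cut from a gel and amplified by PCR, per the labels' protocols. The submitters' processing notes name Bowtie2 and GRCm38.p6 without version or role. Molecular identifiers are not given in the sources used here.

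Counts of all miRNAs of a day were tested with edgeR 4.0.16 (R 4.3.3; filterByExpr, TMM, quasi-likelihood F-test with the legacy fit, Benjamini-Hochberg over all miRNAs tested, threshold 0.05). Effects were compared between days in one fit of 6 groups. CPM, arm ratios (pseudocount 0.5) and shares were compared with two-sided exact permutation tests (scipy 1.17.1), which were the main test for miR-34a-3p because it did not pass the filter. Correlations used log2 CPM with a prior count of 2 and 100000 permutations within groups. Alternatives were other scalings, filters of none or 10 CPM, DESeq2 1.42.0, limma-voom 3.58.1, a replicate block and leaving out each library. The code was tested on simulated data. Members and lists were chosen with earlier results of these data known. Named miRNAs are both arms, the seed family, list members past the test or else the 2 with the smallest p, and the 5 most similar to each arm. At day 14 the deviations of libraries of equal number had correlations of 0.41, 0.17, 0.47 and 0.41 (numbers 1 to 4, over 499 miRNAs). Irradiated library 2 correlated more with a control library of another number. Numbers were taken as pairs at day 14, from the data and not from a label, but not at day 90 or day 180. There the correlations were -0.22, 0.36, 0.17 and 0.03 (day 90) and -0.14, -0.09, -0.21 and -0.36 (day 180). Sequences and their coordinates are from RefSeq and gene overlaps from GENCODE M21, both on GRCm38.p6.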

Additional observations from a re-analysis of the deposited data

Results flagged for a closer look

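Among 49 groups of 4 libraries examined for a library far from the other 3, 3 stood out, and chance alone marks about 1 group in 20. For miR-34a-5p in irradiated lungs of day 90, library 4 was highest, with 21244 CPM beside 14317 to 14699 CPM in the others. For miR-34a-5p in irradiated lungs of day 180, library 4 was lowest, with 12811 CPM beside 18824 to 19956 CPM in the others. For miR-449c-5p, of the same seed family, library 2 of the day 180 controls was highest, with 12.8 CPM beside 4.66 to 5.88 CPM in the others.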

How the results depend on the processing

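miR-34a-5p kept a positive fold change in all 21 alternatives at each day and passed only at day 14, in DESeq2 (log2 fold change 0.82, adjusted p 0.024) and in edgeR with no filter (0.81, adjusted p 0.02), with the 24 libraries in a joint fit (0.81, adjusted p 0.0325) or without irradiated library 4 (0.99, adjusted p 0.00137). With 1 library left out, its log2 fold change spanned 0.75 to 0.99 (day 14), 0.08 to 0.30 (day 90) and 0.35 to 0.56 (day 180). With the replicate block, its log2 fold change was 0.79, 0.25 and 0.41 and its edgeR adjusted p 0.551, 0.672 and 0.496 at day 14, day 90 and day 180; the block changed no call of either arm. At day 180 the median fold change of all miRNAs, 0.13 on the log2 scale, was 0.02 with limma-voom, 0.03 with the replicate block and 0.0007 without irradiated library 1.

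The count of miRNAs called at day 14 (0) became 1 with DESeq2, 7 with no filter, 1 with all 24 libraries and 0 to 1 with a library left out. At day 90 (2) it became 18 with no filter, 19 with DESeq2, 5 with upper-quartile factors, 5 with the newer edgeR fit, 0 at a mean of 10 CPM or more, 0 with the replicate block, 0 with all 24 libraries and 0 to 7 with a library left out. At day 180 (0) it became 18 with no filter, 28 with DESeq2, 3 with the newer edgeR fit, 32 with all 24 libraries and 0 to 5 with a library left out. For the differences between days (0 each), DESeq2 called 1 (day 90 minus day 14), 3 (day 180 minus day 14) and 2 (day 180 minus day 90), and leaving out a library gave 0 for the first, 0 to 18 for the second and 0 to 10 for the third.

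The libraries that moved these counts were, at day 14, irradiated 4 (1 without it). At day 90 they were control 4 (7), irradiated 4 (3), control 2 or 3 (1 each), and control 1 and irradiated 1, 2 or 3 (0 each). At day 180 they were irradiated 2 (5) and 4 (3). For day 180 minus day 14 they were irradiated 2 (18), 1 (2) and 4 (1) and control 4 (1) of day 180 and control 2 of day 14 (1). For day 180 minus day 90 they were irradiated 1 (10), 2 (5) and 4 (1) and control 4 (1) of day 180 and control 4 of day 90 (3).

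miR-34a-3p turned its sign at day 180 (0.04) to -0.015 with TMM factors computed without the abundant miRNAs and -0.014 with no filter, and spanned -0.38 to 0.39 with a library left out. At day 14 it spanned 0.60 to 1.35 and at day 90 -0.45 to 0.056, and its day 180 minus day 90 difference (0.20) was -0.086 with limma-voom and spanned -0.19 to 0.56; those of day 90 and day 180 from day 14 spanned -1.51 to -0.81 and -1.43 to -0.48. The arm ratio difference at day 14 (irradiated minus control) was 0.040 with a pseudocount of 2 and spanned -0.38 to 0.23, while that of day 90 spanned 0.28 to 0.57 and that of day 180 0.19 to 1.27. The seed family share difference was 10.6 and 7.81 points at day 14 and day 180 among miR-34 miRNAs only, and with a library left out it spanned 14.1 to 22 (day 14), -4.46 to 1.04 (day 90) and 3.35 to 13 points (day 180). The correlation of the arms was 0.29 with library totals only, 0.32 within day 14 and 0.81 within day 90. The cause of these shifts was not tested. Depth limits miR-34a-3p, which rests on 1 to 18 counts per library, and not miR-34a-5p.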
